A study of Mus musculus with 6 samples.

Results

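The genes examined here host circular RNAs (circRNAs) and belong to the mitogen-activated protein (MAP) kinase cascade. They were taken from the circRNA table by name, as every row whose gene symbol begins with Mapk, Map2k, Map3k or Map4k followed by a digit. The rule used names only and no measured value. It gave 92 circRNAs of the 18136 in the table, 31 host genes of 5414, and 795 of 190023 junction reads. By class they were 4 MAP4K genes with 17 circRNAs, 12 MAP3K genes with 26, 4 MAP2K genes with 23, 8 MAP kinase genes with 20, and 3 genes of MAP kinase-interacting proteins with 6. The RNA came from mouse brain in 6 libraries. Of these 3 carry the label WT, wild type, and 3 the label A53T, a transgenic mouse model of Parkinson disease named for a mutation of alpha-synuclein. Brain is the tissue in the sample labels, while the series text speaks of the substantia nigra of the midbrain. The labels state neither age, strain and the promoter of the transgene nor whether samples are separate animals, and a p-value therefore reflects sample-to-sample spread that may be technical.

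In the MAP kinase cascade each kinase phosphorylates the next, from MAP4K to MAP3K to MAP2K to the MAP kinase, which then acts on transcription factors and other targets. The main branches end in the ERK kinases, known for growth factor and synaptic signalling, and in the JNK and p38 kinases, known for responses to stress, also in dopaminergic neurons. A circRNA is a closed ring made when a downstream exon is spliced at its end back to the start of an upstream one, and sequencing recognises it by reads across this back-splice junction. Such a read shows the ends of the ring. The exons inside it and its length are predicted. A junction read is counted at 1 point of each ring, so counts were compared without dividing by length, and they say nothing about the linear mRNA of the same gene.

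The libraries held 25217 to 36390 junction reads, so that 1 read was worth 27.48 to 39.66 CPM, the unit of reads scaled to library size. Hosts of all 8 neuronal marker genes were present, at summed levels of 22170 to 24510 CPM in WT and 19450 to 22960 CPM in A53T. Of 8 dopaminergic markers, circRNAs of Kcnj6 and Dcc were read, while the defining genes Th, Slc6a3, Slc18a2, Ddc, Nr4a2 and Aldh1a1 had none. Summed over Kcnj6 and Dcc, the level was 674 to 879 CPM in WT against 1106 to 1678 CPM in the A53T libraries. Among single listed hosts with at least 6 reads, 5.8% had all A53T libraries above all WT libraries. Markers of microglia (0 of 6) and erythrocytes (0 of 3) had no circRNA, and 2 of 6 astrocyte, 2 of 7 oligodendrocyte and 1 of 4 endothelial markers had 210.1 CPM or less in each library. The part of the higher summed level of Kcnj6 and Dcc in the results below was not tested.

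MAP kinase cascade genes gave overlapping shares of the circRNA reads in both groups. They held 0.481, 0.462 and 0.349% of a library in WT, replicates 1 to 3 in this order here and below, against 0.359, 0.388 and 0.444% in A53T. The groups overlapped, with means of 0.430% ± 0.0712 in WT and 0.397% ± 0.0435 in A53T (SD, n = 3 each; ± gives the SD throughout). In bulk RNA, fewer cells of a type and less RNA per cell cannot be told apart. The MAP2K class, with 4 genes, gave 301 reads or 37.9% of the reads of the cascade, more than the 12 MAP3K genes with 170, the 8 MAP kinase genes with 196 or the 4 MAP4K genes with 115. No class separated the groups: MAP2K genes held 0.157% ± 0.0482 of a library in WT and 0.154% ± 0.0236 in A53T, and MAP3K genes 0.102% ± 0.0278 and 0.0751% ± 0.0323 (n = 3 each).

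**Figure D1:**
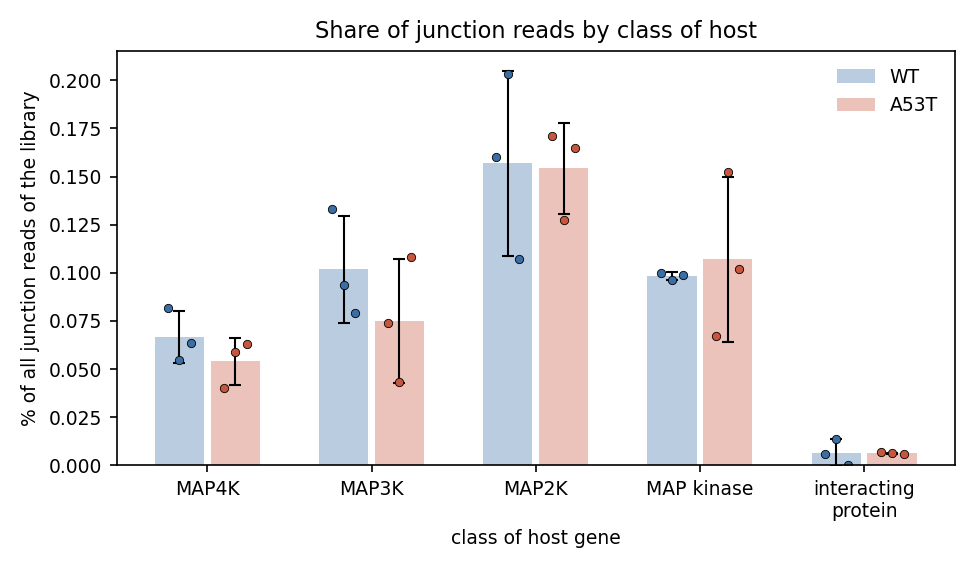
Share of all junction reads of a library (vertical axis, %) held by each class of host gene (horizontal axis), with bars for the mean of 3 libraries, error bars for the SD and points for single libraries. Points of WT and A53T overlap in every class, and the MAP2K bars stand highest at 0.157 and 0.154%.

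Few hosts carried most of the reads. Map2k4 alone had 154 reads (19.4%), the 5 most read hosts had 426 (53.6%), and the median host had 12. At the other end, Map3k8 and Mapk8ip3 had 6 reads each, Mapk8ip1 5, Mapk6 4 and Map2k6 3, and Map3k1, Map3k7, Map3k13, Map3k14, Map3k15, Mapk3 and Mapk9 had 2 each. No circRNA was listed for Map2k2, Map2k3, Map2k7, Map4k1, Mapk7, Mapk11, Mapk12, Mapk13 or Mapk15. The same held for Map3k6, Map3k9, Map3k11, Map3k12, Map3k19, Map3k20 and Mapk8ip2.

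**Figure D2:**
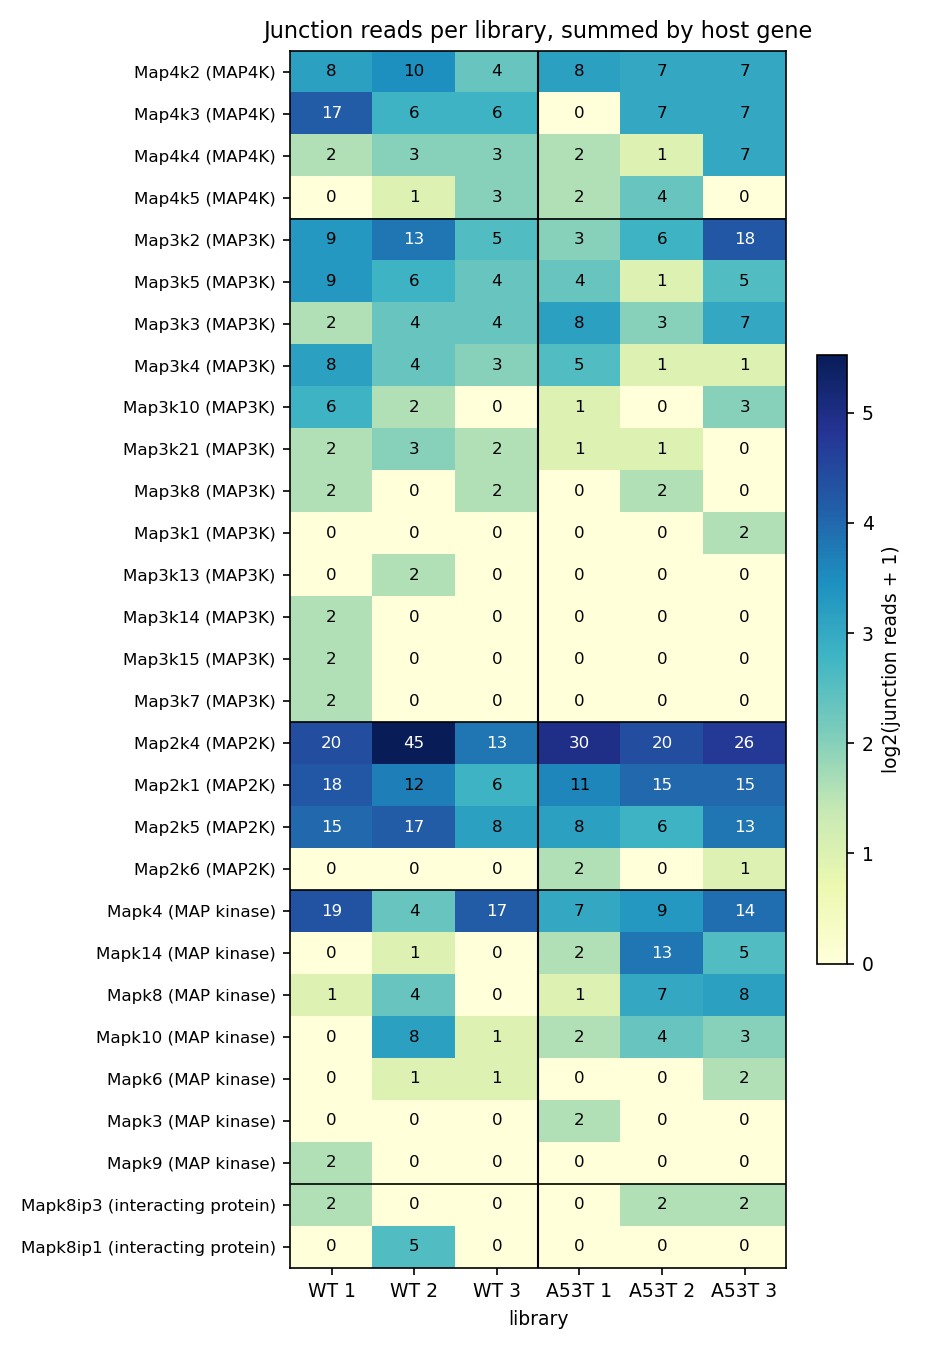
Junction reads of 29 of the 31 host genes (rows, grouped by class) in each of the 6 libraries (columns), with the count printed in the cell and the colour on a log2(reads + 1) scale. Map2k4 has the darkest row, from 13 to 45 reads, and Mapk14 has 1 read over the WT libraries against 20 over the A53T libraries.

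No circRNA and no host gene of the cascade passed the test of A53T against WT across the whole table. Features with 5 reads or more in 3 or more of the 6 libraries entered edgeR's quasi-likelihood test. They were 1214 circRNAs and 1377 host genes, of which 5 and 9 belonged to the cascade. With Benjamini-Hochberg adjustment 0% of the circRNAs and 0% of the host genes passed 0.05, and the smallest adjusted p values were 0.216 and 0.243. At an unadjusted p under 0.05 stood 57 circRNAs (4.7%) and 63 host genes (4.58%), none of the cascade among them. DESeq2 called 0 of either kind. The groups did not overlap in 11.3% of the tested circRNAs and in 0 of the 5 of the cascade. The 9 tested hosts, with 596 of the 795 reads, comprised 4 with higher and 5 with lower fitted levels in A53T, and their median log2 fold change was -0.45 against 0.01 over all hosts tested. A filter that asks for reads in several libraries leaves out hosts read in few, so these 9 do not stand for the 31. The biological coefficient of variation was 30.9% for host genes, as a common value over all tested hosts. Intervals of log2 fold changes below carry the spread between samples as fitted by edgeR, while those of ratios carry counting error only.

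**Figure D3:**
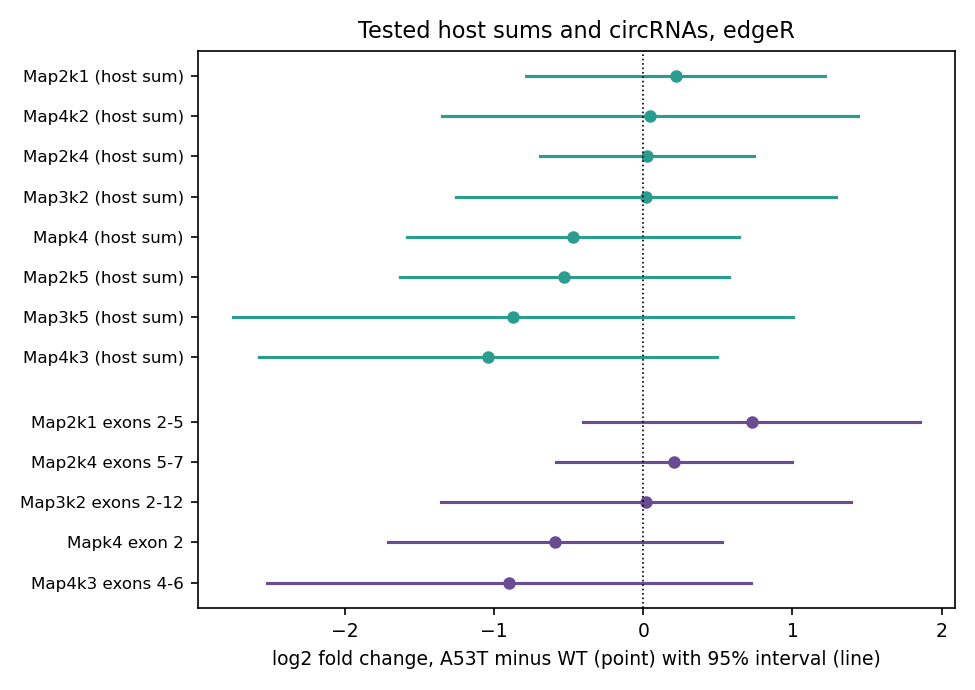
Fitted log2 fold change of A53T against WT (horizontal axis; point) with its 95% interval (line) for 8 of the 9 tested host sums and the 5 tested circRNAs of the cascade (rows). Every interval includes 0, and the widest, for Map3k5, runs from -2.75 to 1.00.

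Among the MAP4K genes, Map4k2 and Map4k3 gave most reads. Both encode kinases of the germinal centre kinase family that act upstream of JNK, and Map4k3 is also known for amino acid signalling to mTOR. Map4k3 had 17, 6 and 6 reads in WT against 0, 7 and 7 in the A53T libraries. WT replicate 1 was the high library and A53T replicate 1 the empty one, while the other 4 libraries had 6 or 7 reads, and the groups overlapped. The levels were 303 CPM ± 180 in WT and 143 CPM ± 124 in A53T (n = 3 each), a log2 fold change of -1.04 (SE 0.77, 95% interval -2.57 to 0.50, adjusted p = 0.989 in edgeR's quasi-likelihood test). It moved to -0.43 without WT replicate 1 and to -0.50 without A53T replicate 1. The ratio of A53T to WT reads was 0.489 (exact 95% interval 0.239 to 0.956, counting error only). Without WT replicate 1 that ratio was 0.761 (0.326 to 1.80).

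Nearly all of the Map4k3 reads came from 1 ring, of exons 4 to 6 (chr17:80961291-80963350, minus strand, mm39, 169 nt, coding sequence only). It had 15, 6 and 4 reads in WT and 0, 6 and 7 in A53T. As in the host sum, the difference lay in WT replicate 1 and A53T replicate 1, and the log2 fold change was -0.90 (SE 0.80, 95% interval -2.52 to 0.72). Leaving out WT replicate 1 gave -0.23, leaving out A53T replicate 1 gave -0.33, and leaving out A53T replicate 3 gave -1.38. Less read rings of exons 9 to 12 and 8 to 10 had 3 and 2 reads in all.

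Map4k2 as a whole overlapped between the groups, with 8, 10 and 4 reads in WT and 8, 7 and 7 in A53T, or 223 CPM ± 57.9 and 234.04 CPM ± 34.0 (n = 3 each). The log2 fold change was 0.05 (SE 0.70, 95% interval -1.35 to 1.44). Its reads were spread over 5 rings that all began at the same exon 4 (first base chr19:6391933, plus strand, mm39) and ended after exon 6, 7, 8, 9 or 21. The junctions of the 4 with more than 2 reads are shown because they share exon 4 and differ in the exon joined to it, and that of Map4k3 because it joins the exons of the same number. Each line gives the last 20 bases of the donor exon in capitals and the first 20 bases of exon 4 in lower case, from the GENCODE M21 reference transcripts.
Map4k2 exons 4 to 6: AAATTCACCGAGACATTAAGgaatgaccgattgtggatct
Map4k2 exons 4 to 7: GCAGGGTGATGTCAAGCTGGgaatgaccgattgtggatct
Map4k2 exons 4 to 8: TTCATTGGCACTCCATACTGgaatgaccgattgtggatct
Map4k2 exons 4 to 9: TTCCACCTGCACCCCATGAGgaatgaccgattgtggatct
Map4k3 exons 4 to 6: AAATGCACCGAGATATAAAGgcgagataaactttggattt

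The rings of Map4k2 differed in which group held their reads. The ring of exons 4 to 7 (212 nt) had 1, 1 and 1 read in WT against 5, 4 and 3 in the A53T libraries. All A53T libraries lay above all WT libraries, as in 6.23% of the listed circRNAs with at least 6 reads, and the ratio of A53T to WT was 4.05 (exact 95% interval 1.09 to 22.4, counting error only). Without A53T replicate 1 the ratio was 3.46 (0.790 to 20.7). The interval also reached below 1 without A53T replicate 2 or any of the WT libraries, and without A53T replicate 3 it was 1.16 to 26.6 around a ratio of 4.63. In edgeR's quasi-likelihood test with no filter on low counts, this ring had an unadjusted p = 0.161 and an adjusted p = 0.469 over 18136 circRNAs. In the other direction, the ring of exons 4 to 9 (417 nt) had 3, 3 and 1 read in WT and 1, 0 and 0 in A53T. All its A53T libraries lay below all WT libraries after scaling to library size, as in 4.32% of the listed circRNAs with at least 6 reads. The rings of exons 4 to 6 (3, 0 and 2 reads against 2, 1 and 3) and 4 to 8 (1, 4 and 0 against 0, 2 and 1) overlapped between the groups. As a share of the exonic reads of Map4k2, the ring of exons 4 to 7 made up 12.5, 10 and 25% in WT against 62.5, 57.1 and 42.9% in the A53T libraries, out of 4 to 10 reads each.

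The exons 4 to 6 of Map4k2 and Map4k3 form rings of the same length, 169 nt, over the same protein residues, 82 to 138. Their sequences were identical at 117 of 169 positions (69.2%), and at 17 of the 20 bases before the junction against 11 of the 20 after it. In the GENCODE M21 annotation the introns before exon 4 differed in length, with 68 nt in Map4k2 and 8070 nt in Map4k3. An upstream intron under 100 nt was found for 85 of the 12739 matched exonic circRNAs of the table (0.667%), the 5 rings of Map4k2 among them. In 4 of these 5 both flanking introns were under 100 nt, which held for 18 matched circRNAs in all (0.141%).

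Map4k4, another JNK pathway kinase, had 2, 3 and 3 reads in WT and 2, 1 and 7 in A53T over 6 circRNAs. Of the 7 reads in A53T replicate 3, 5 came from a ring of exons 21 and 22 (297 nt). Map4k5 had 0, 1 and 3 reads against 2, 4 and 0, and each of its 3 junctions was read in 1 group only.

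MAP3K genes, whose kinases phosphorylate the MAP2K, had many hosts and few reads. Map3k2, which encodes MEKK2, an activator of the MEK5 and ERK5 branch, had 9, 13 and 5 reads in WT and 3, 6 and 18 in A53T. A53T replicate 3 was the highest and A53T replicate 1 the lowest of the 6 libraries, so the WT values lay inside the A53T range. The levels were 273 CPM ± 77.4 and 278 CPM ± 236 (n = 3 each), a log2 fold change of 0.02 (SE 0.64, 95% interval -1.25 to 1.29), which became -0.94 without A53T replicate 3 and 0.38 without A53T replicate 1. Its main ring, exons 2 to 12 (chr18:32324954-32345221, plus strand, mm39, 1111 nt), holds the start codon. That ring had 8, 9 and 5 reads against 3, 6 and 13, with a log2 fold change of 0.02 (SE 0.68, 95% interval -1.35 to 1.39).

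Map3k5 encodes ASK1, a kinase known for relaying oxidative stress to JNK and p38. It had 9, 6 and 4 reads in WT and 4, 1 and 5 in A53T, or 197 CPM ± 61.8 and 106 CPM ± 65.7 (n = 3 each). After scaling to library size all A53T libraries lay below all WT libraries, the only tested host of the cascade without overlap (1 of 9; 10.5% of all tested hosts had none). The log2 fold change was -0.87 (SE 0.94, 95% interval -2.75 to 1.00, unadjusted p = 0.356), and -0.47 without A53T replicate 2. Its reads came from different rings in different libraries. The ring of exons 12 to 14 (chr10:19952228-19958214, plus strand, mm39, 228 nt) had 4, 6 and 0 reads in WT and 2, 0 and 0 in A53T, while that of exons 22 and 23 (347 nt) had 0, 0 and 2 against 1, 1 and 5. For exons 12 to 14 the ratio of A53T to WT was 0.203 (exact 95% interval 0.0216 to 0.951, counting error only). Without WT replicate 1 that ratio was 0.217 (0.0214 to 1.22).

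Among the MAP3K hosts below the filter, Map3k3 (MEKK3, close to MEKK2) had 2, 4 and 4 reads against 8, 3 and 7, and Map3k4 (MEKK4) 8, 4 and 3 against 5, 1 and 1. All 3 rings of Map3k3 ended after exon 6, at chr11:106014732 (mm39), and began at exon 2, 3 or 5. Map3k10 and Map3k21, mixed lineage kinases that feed JNK, had 6, 2 and 0 against 1, 0 and 3 reads, and 2, 3 and 2 against 1, 1 and 0. In Map3k21 every A53T library lay below every WT library, on 9 reads in all (4.5% of listed hosts with at least 6 reads lay so). The 12 reads of Map3k10 came from a single ring of exons 7 to 9 (948 nt). Map3k8 had the only member with a database identifier, listed with a length of 5786 nt that matched no run of annotated exons.

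MAP2K genes were the most read class, and Map2k4 and Map2k1 its leading hosts. Map2k4 encodes MKK4, which phosphorylates both JNK and p38. It had 20, 45 and 13 reads in WT and 30, 20 and 26 in A53T. The highest and the lowest libraries were both WT, replicates 2 and 3, and the A53T values lay between them. The levels were 778 CPM ± 387 and 811 CPM ± 203 (n = 3 each), with a log2 fold change of 0.02 (SE 0.36, 95% interval -0.69 to 0.74), the narrowest interval in the cascade.

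The main ring of Map2k4 joins exons 5 to 7 (chr11:65597810-65603123, minus strand, mm39, 300 nt, coding sequence only) and was the most read circRNA of the cascade, with 125 reads. It had 12, 35 and 12 reads in WT and 25, 15 and 26 in A53T. WT replicate 2 again stood above the rest, and the log2 fold change of 0.21 (SE 0.39, 95% interval -0.59 to 1.00) became 0.80 without that library and -0.07 without WT replicate 1. A ring of exons 3 to 7 shared its donor end and had 8 reads. Another, of exons 2 and 3 of a shorter transcript (136 nt), had 1, 9 and 1 reads against 3, 1 and 0. The pair that shares the donor exon is shown because the capitals are the same and the acceptor differs.
Map2k4 exons 5 to 7: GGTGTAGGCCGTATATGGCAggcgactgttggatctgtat
Map2k4 exons 3 to 7: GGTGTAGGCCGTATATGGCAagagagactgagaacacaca

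Map2k1 encodes MEK1, a kinase of the ERK branch. Its host sum was 18, 12 and 6 reads in WT and 11, 15 and 15 in A53T, or 367 CPM ± 153 and 432 CPM ± 48.7 (n = 3 each). The groups overlapped, with a log2 fold change of 0.22 (SE 0.50, 95% interval -0.79 to 1.22). Behind this sum, its 3 exonic rings differed in where their reads lay. All 3 began at exon 2 (last base chr9:64121891, minus strand, mm39), after an intron of 38603 nt. The junctions are shown with the 20 bases of the donor exon in capitals, because these alone tell the rings apart.
Map2k1 exons 2 to 3: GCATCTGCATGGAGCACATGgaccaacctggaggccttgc
Map2k1 exons 2 to 5: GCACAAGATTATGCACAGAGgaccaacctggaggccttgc
Map2k1 exons 2 to 8: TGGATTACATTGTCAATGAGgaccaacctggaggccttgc

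The ring of exons 2 to 5 (chr9:64111713-64121891, 488 nt) had 11, 7 and 4 reads in WT and 7, 15 and 14 in A53T. A53T replicates 2 and 3 were highest and A53T replicate 1 lay within the WT range, and the log2 fold change was 0.73 (SE 0.56, 95% interval -0.40 to 1.86, adjusted p = 0.993 in edgeR's quasi-likelihood test). The ring of exons 2 to 8 (880 nt) had 6, 2 and 0 reads against 1, 0 and 0, and that of exons 2 and 3 (358 nt) had 1, 3 and 2 against 0, 0 and 1. For exons 2 to 8 the ratio of A53T to WT was 0.127 (exact 95% interval 0.00286 to 0.945, counting error only). Without WT replicate 1 that ratio was 0.326 (0.00552 to 6.26). As a share of the exonic reads of the gene, the ring of exons 2 to 5 made up 61.1, 58.3 and 66.7% in WT against 87.5, 100 and 93.3% in the A53T libraries, out of 18, 12 and 6 and of 8, 15 and 15 reads. All A53T shares lay above all WT shares.

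This share of the ring most read over all 6 libraries was computed for tested hosts with at least 2 exonic rings and exonic reads in every library, 7 of them in the cascade. It was above every WT library in all A53T libraries in 2 of the 7, Map2k1 and Map4k2, and below in none, where 4.09% of 1052 hosts in the table had it above and 5.13% below. In Map2k4, Map2k5, Map3k2 and Map3k5 the shares of the groups overlapped. No test was made of these shares, and both hosts were singled out after their values were seen.

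**Figure D4:**
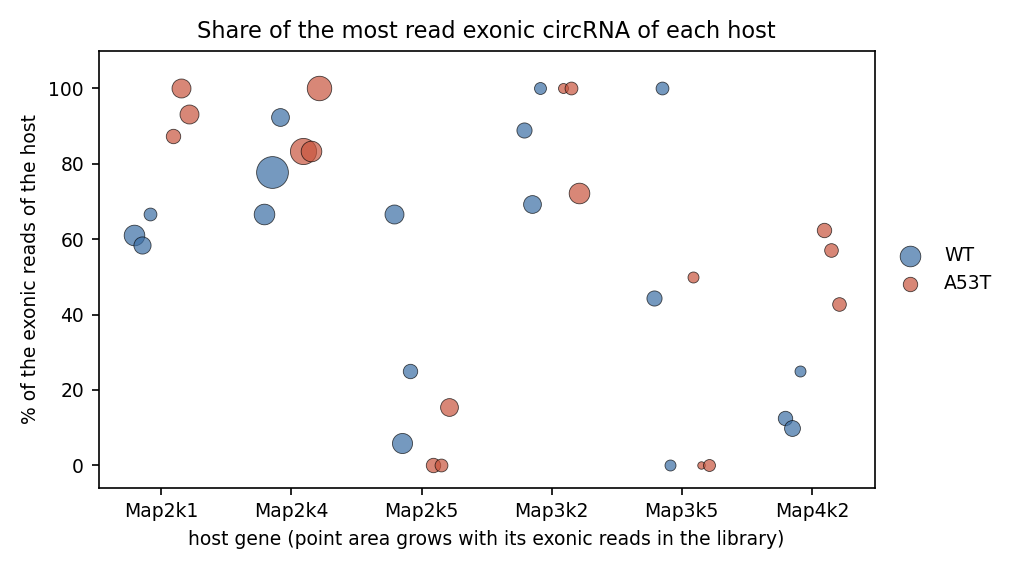
Share of the exonic junction reads of a host that fell on its ring most read over all 6 libraries (vertical axis, %) for 6 hosts (horizontal axis), 1 point per library, with an area that grows with the exonic reads of the host in it. In Map2k1 and Map4k2 the A53T points (87.5 to 100% and 42.9 to 62.5%) lie above the WT points (58.3 to 66.7% and 10 to 25%), and in the other hosts drawn they overlap.

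Map2k5, which encodes MEK5, the kinase of ERK5, had more different rings than any other host of the cascade, 12. Its reads were 15, 17 and 8 in WT and 8, 6 and 13 in A53T, or 409 CPM ± 79.1 and 284 CPM ± 105 (n = 3 each). The groups overlapped, and the log2 fold change was -0.53 (SE 0.55, 95% interval -1.63 to 0.57), -0.32 without A53T replicate 2 and -0.87 without A53T replicate 3. No ring of it passed the filter. That of exons 3 to 6 (chr9:63245367-63265342, minus strand, mm39, 247 nt) had 10, 1 and 2 reads in WT and 0, 0 and 2 in A53T, most of them in WT replicate 1. Its ratio of A53T to WT was 0.156 (exact 95% interval 0.0171 to 0.689, counting error only). Without WT replicate 1 that ratio was 0.435 (0.0363 to 3.79). The ring of exons 13 to 18 (303 nt) had 1, 0 and 0 against 2, 2 and 2, and that of exons 4 to 8 (293 nt) 2, 2 and 1 against 0, 1 and 0. Map2k6, which encodes MKK6, a kinase of p38, had 1 intronic circRNA with 3 reads, all in A53T.

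**Figure D5:**
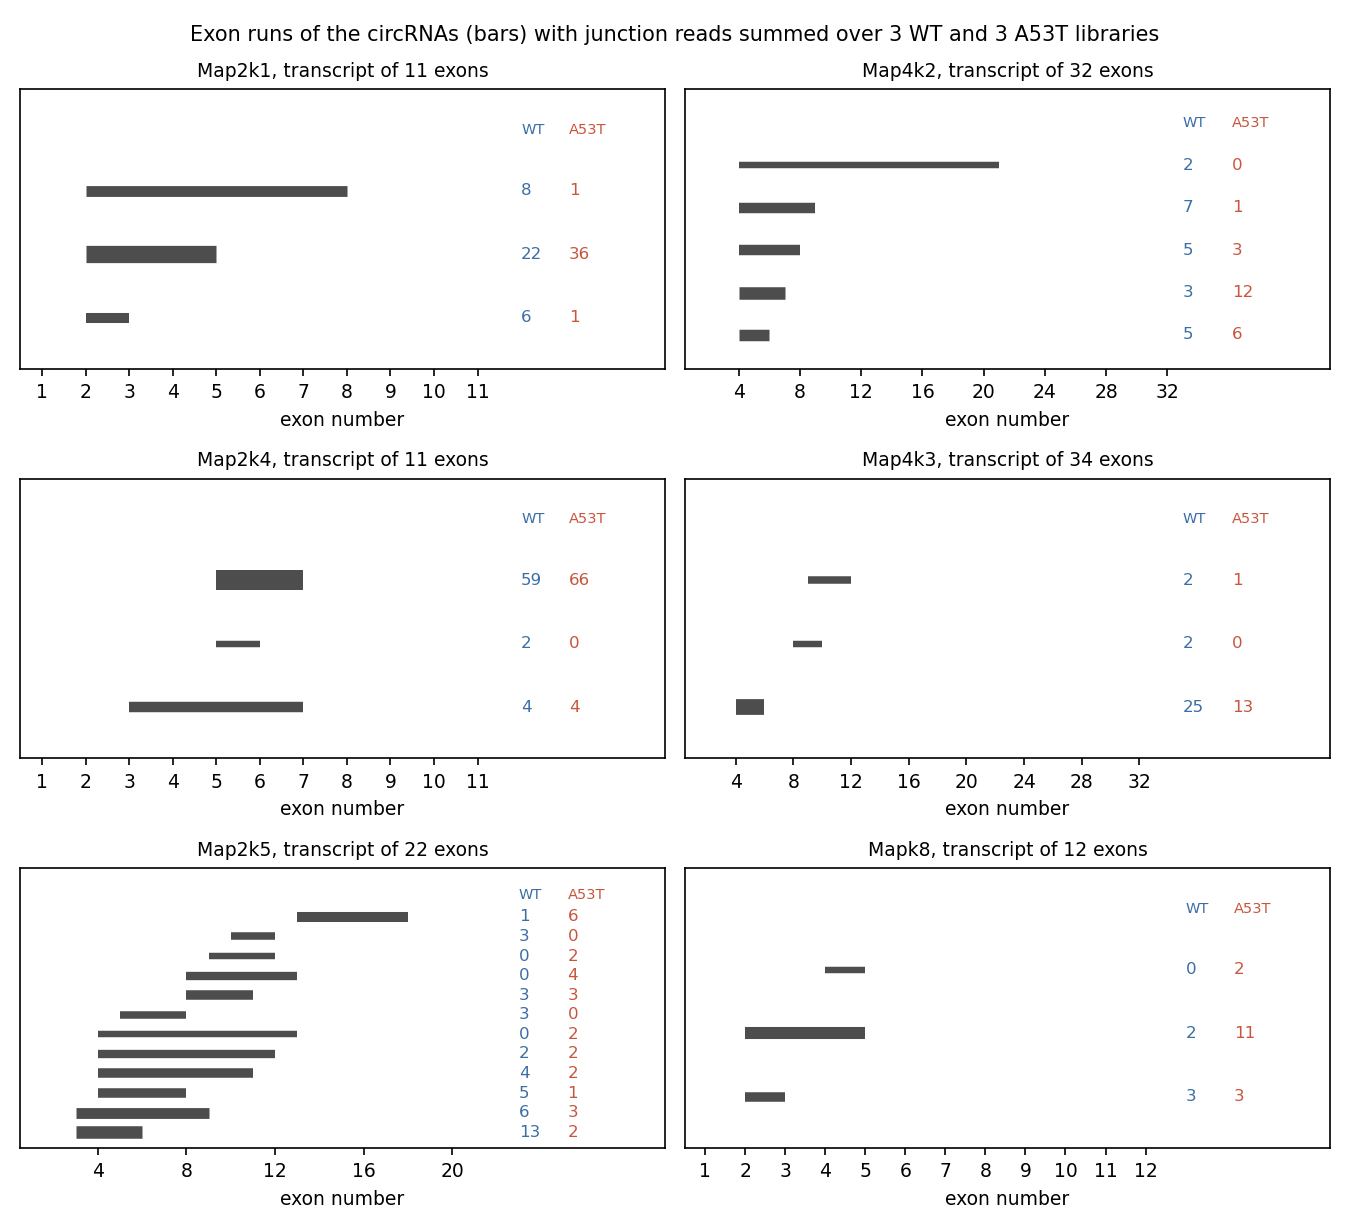
Exon runs of the matched rings (bars, thicker with more reads) of Map2k1, Map4k2, Map2k4, Map4k3, Map2k5 and Mapk8, by exon number of the transcript (horizontal axis), with the junction reads summed over 3 WT and over 3 A53T libraries at the right. Only rings of the most read transcript of each gene are drawn, which leaves out the Map2k4 ring of the shorter transcript (15 reads). Every bar of Map2k1 starts at exon 2 and every bar of Map4k2 at exon 4, while the 12 bars of Map2k5 start at several exons.

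Among the MAP kinases, Mapk4 was the most read. It encodes ERK4, an atypical member of the family. It had 19, 4 and 17 reads in WT and 7, 9 and 14 in A53T, and WT replicate 2 was lowest of all while the other 2 WT libraries were highest. The levels were 450 CPM ± 301 and 314 CPM ± 97.6 (n = 3 each), with a log2 fold change of -0.47 (SE 0.56, 95% interval -1.58 to 0.64). That value depended on single libraries: it was -0.96 without WT replicate 2, -0.77 without A53T replicate 3, -0.22 without WT replicate 1 and -0.10 without WT replicate 3, and limma-voom gave -0.03. Of its 70 reads 67 came from a ring made of exon 2 alone (chr18:74102962-74104347, minus strand, mm39, 1386 nt), which holds the start codon. The reads of that ring were 19, 4 and 17 against 7, 9 and 11, with a log2 fold change of -0.59 (SE 0.55, 95% interval -1.71 to 0.53). It ranged from -1.06 when WT replicate 2 was left out to -0.35 for WT replicate 1 and -0.23 for WT replicate 3, and limma-voom gave -0.20.

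Mapk14 and Mapk8, the genes of p38 alpha and JNK1, had most of their reads in A53T but too few for the test across the table. Mapk14 had 0, 1 and 0 reads in WT and 2, 13 and 5 in A53T. Each A53T library lay above each WT library, and A53T replicate 2 held most of the reads. The ratio of A53T to WT was 20.3 (exact 95% interval 3.24 to 840, counting error only), and 10.8 (1.38 to 485) without A53T replicate 2. Without WT replicate 2, which held the single WT read, the scaled A53T reads were 4.24-fold a floor of 3 reads over the WT group. That value leaves out the counting error of the A53T reads. With no filter on low counts, edgeR's quasi-likelihood test gave Mapk14 an unadjusted p = 0.00592 and an adjusted p = 0.63 over 5414 host genes. Of the 20 hosts of the cascade with at least 6 reads Mapk14 was the 1 (5%) with all A53T above all WT, where 5.8% of all such hosts were.

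Of the Mapk14 reads, 11 came from a ring of exons 2 and 3 (chr17:28932748-28934415, plus strand, mm39, 189 nt, coding sequence only). It had no read in WT against 0, 7 and 4 in the A53T libraries. After scaling, the A53T reads were 3.72-fold a floor of 3 reads over the WT group, and 2.05-fold without A53T replicate 2. These values leave out the counting error of the A53T reads and are not lower limits. A sense overlapping circRNA gave 0, 1 and 0 reads against 0, 6 and 0, and a ring of exons 4 to 9 none against 2, 0 and 1. A53T replicate 1 had no read at the junctions that gave most reads of replicates 2 and 3.

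Mapk8 had 1, 4 and 0 reads in WT and 1, 7 and 8 in A53T. A53T replicate 1 lay within the WT range, and the ratio was 3.24 (exact 95% interval 1.14 to 11.3, counting error only), or 2.47 (0.713 to 9.60) without A53T replicate 3. WT replicate 2 held 4 of the 5 WT reads, and without it the ratio was 10.2 (1.58 to 427). In edgeR's quasi-likelihood test with no filter on low counts, Mapk8 had an unadjusted p = 0.161 and an adjusted p = 0.63 over 5414 host genes. Its ring of exons 2 to 5 (chr14:33124581-33132981, minus strand, mm39, 497 nt), which holds the start codon, had 1, 1 and 0 reads against 1, 4 and 6. That of exons 2 and 3 had 0, 3 and 0 against 0, 1 and 2. The junctions of the leading rings of both genes are shown because their reads carry these counts.
Mapk14 exons 2 to 3: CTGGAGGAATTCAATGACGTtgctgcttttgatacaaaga
Mapk8 exons 2 to 5: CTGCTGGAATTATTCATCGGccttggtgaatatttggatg

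The other JNK genes had fewer reads: Mapk10, which encodes the JNK3 of neurons, had 0, 8 and 1 against 2, 4 and 3 over 6 circRNAs, and Mapk9, which encodes JNK2, had 2 reads in WT replicate 1. Mapk3, which encodes ERK1, had 2 reads from an intron. Mapk6, which encodes ERK3, had 0, 1 and 1 against 0, 0 and 2. Of the interacting proteins, Mapk8ip3, a JNK scaffold that binds kinesin motors, had 2, 0 and 0 reads against 0, 2 and 2. Mapk8ip1, a related scaffold, had 5 reads, all in WT replicate 2, and 2 of these were from an antisense circRNA.

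The cascade had 34 listed circRNAs with at least 6 reads, and their libraries were compared after scaling to library size. Of these circRNAs, 3 had all A53T libraries above all WT libraries (8.82%, against 6.23% of such circRNAs in the table). They were the ring of exons 2 to 5 of Mapk8, that of exons 4 to 7 of Map4k2 and that of exons 13 to 18 of Map2k5. In the other direction 2 lay below (5.88%, against 4.32%), the ring of exons 4 to 9 of Map4k2 and that of exons 4 to 8 of Map2k5. In the Mapk8 ring and in both rings that lay below, the counts of the groups met at 1 read. Those rings separated the groups only through the scaling. Among hosts 2 of 20 lay below (10%, against 4.5%), Map3k21 and Map3k5. These counts are small and were not tested against the background.

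Most rings of the cascade were made of coding exons. Of the 92 circRNAs 71 were exonic (77.2%, against 72.4% of all), 12 sense overlapping, 7 intronic and 2 antisense. The exonic ones had a median predicted length of 417 nt, against 582 nt over the table. The difference in length was not tested. Of 70 matched to 1 run of exons the median held 4 exons, 20 began at exon 2 (28.6%, against 27.7%), 62 were wholly coding (88.6%, against 83.0%) and 8 held the start codon (11.4%, against 1656 of 12739 in the table). In 19 (27.1%, against 33.4%) the ring was wholly coding with a length divisible by 3. Reads in 1 library alone were found for 44 of the 92 (47.8%, against 50.7%), and 6 rings were read in all 6 libraries (6.52%, against 8.80%).

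In some hosts all rings shared an end. Of the 12 hosts of the cascade with at least 3 matched rings, all rings began at the same exon in 2, Map2k1 and Map4k2 (16.7%, against 3.68% of 1551 such hosts), and all ended at the same exon in 1, Map3k3 (8.33%, against 1.03%). These shares were read off a few hosts and were not tested.

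The exon ends of several rings fell within the catalytic loop of the kinase domain, the stretch that carries a His-Arg-Asp triplet in most kinases. The triplet was searched in the translated reference transcripts of 68 matched rings. The transcripts of 65 rings from 23 hosts held it, and those of Map3k8, Map3k14 and the shorter Map2k4 transcript, with 1 ring each, did not. In 9 rings of 7 hosts, with 134 reads, the last residue lay 0 to 5 residues after the first residue of the triplet, so that the donor exon ended there. They were the ring of exons 2 to 5 of Map2k1, of exons 5 and 6 of Map2k4, both Map2k5 rings that ended after exon 13, both Mapk8 rings that ended after exon 5, the rings of exons 4 to 6 of Map4k2 and Map4k3, and that of exons 12 to 23 of Map3k4. In Map2k1 the ring covered residues 27 to 190 of 393 with the triplet at 188. In Map4k2 and Map4k3 it covered residues 82 to 138 with the triplet at 134. In all, 25 of the 65 rings held codons of a triplet. The window was set after the values had been seen, and no background was computed for it.

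The wider pathway was described with 126 genes outside the naming rule, in 5 lists. Of these 84 had a circRNA and 36 were tested, with 14 fitted higher and 22 lower in A53T. Their median log2 fold change was -0.13 against 0.01 over all hosts. Of the 36, 0 were called and 1 was at an unadjusted p under 0.05. Over all 1377 tested hosts, 697 were fitted higher and 4.58% were at an unadjusted p under 0.05. By list, 3 of the 7 tested genes upstream of the MAP3K were higher and 4 lower, 3 and 3 of the 6 kinases akin to MAP4K and MAP3K, 2 and 5 of the 7 scaffolds and adaptors, 3 and 5 of the 8 substrates, and 3 and 5 of the 8 inhibitors and phosphatases.

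The pathway gene with the smallest p was Creb1, a transcription factor that kinases downstream of ERK phosphorylate. It had 12, 16 and 20 reads in WT and 2, 9 and 8 in A53T, and every A53T library lay below every WT library. The groups did not overlap in 10.5% of all tested hosts. The levels were 529 CPM ± 233 and 196 CPM ± 112 (n = 3 each), a log2 fold change of -1.37 (SE 0.58, 95% interval -2.52 to -0.22, unadjusted p = 0.0208, adjusted p = 0.870 in edgeR's quasi-likelihood test). Lower values were also fitted for Rasgrf2, a Ras exchange factor, with 9, 20 and 14 reads against 4, 9 and 8 (log2 fold change -1.03, SE 0.58), and for Taok1, a stress-responsive MAP3K, with 6, 15 and 18 against 3, 12 and 9 (-0.75, SE 0.59). With 1 library left out the value for Taok1 ran from -1.16, without A53T replicate 2, to -0.25, without WT replicate 3, and it was -0.40 without A53T replicate 1 and -1.12 without WT replicate 1.

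On the other side, Shoc2, a scaffold of Ras and RAF, had 6, 3 and 3 reads against 6, 14 and 7 (log2 fold change 1.15, SE 0.77), with every A53T library above every WT library after scaling, and the value was 0.69 without A53T replicate 2. Stk3, the MST2 kinase of the Hippo pathway, had 30, 21 and 25 against 32, 35 and 34 (0.40, SE 0.33), again without overlap, and 0.19 without WT replicate 2. Creb1, Shoc2 and Stk3 were named for their small p, and 10.5% of all tested hosts had no overlap either. Mef2d, a transcription factor that p38 and ERK5 phosphorylate, had 13, 0 and 1 against 13, 5 and 8 (0.92, SE 0.82). WT replicate 1 equalled the highest A53T library in Mef2d, and without it the value was 3.77. Leaving out WT replicate 2 gave 0.30, leaving out A53T replicate 1 gave 0.44, and leaving out WT replicate 3 gave 0.52. The adjusted p of these 5 genes was 0.989 each in edgeR's quasi-likelihood test.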

How the data were processed

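RNA of 6 mouse brain samples was enriched for circRNA and sequenced in paired reads with a strand-marking kit, as the labels' protocols state. In the deposited table stand counts of back-splice junction reads made by the authors and their log2 CPM, per the file headers, and a deposited predicted length per circRNA. As tools, cutadapt 1.9.3, edgeR 3.16.5 and STAR are named, with the build mm39, per the submitters' processing notes. Which circRNA caller and annotation served is not given in the sources used here. A circRNA is listed only where some library held at least 2 reads of it. The deposited log2 CPM served only as a check (largest difference 0.122 from a recomputed value).

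Counts were summed by gene name, and 338 circRNAs without one stayed out of these sums. edgeR 4.0.16 (quasi-likelihood, TMM, R 4.3.3) was fitted to all circRNAs or hosts with at least 5 reads in 3 of 6 libraries, two-sided, with Benjamini-Hochberg adjustment over all tested and a threshold of 0.05. Library size was the sum of all junction reads. The script was also run on simulated counts of features that passed the filter, with the same dispersion for all of them. That run does not cover hosts below the filter, and its outcome is not given here. Ratios of few reads carry exact conditional 95% intervals for counting error only, since PCR reads are not independent molecules. Same-group libraries differed by more than sampling noise, with a chi-square of 2.00 to 2.82 per degree of freedom. Exon numbers come from matching span and predicted length to GENCODE M21 transcripts, with no coordinates converted. Some member genes are counted in the sums but not reported here by name. The other tested member hosts and circRNAs were named, with up to 3 pathway genes in each direction of smallest p. Members, lists and named genes were chosen with earlier results of these data known. Alternatives were other scalings, filters, DESeq2 1.42.0, limma-voom 3.58.1, leaving out each library, a replicate block and the exact test of edgeR.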

Additional observations from a re-analysis of the deposited data

How the results depend on the processing

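No fold change of a host or circRNA of the cascade passed the threshold under any alternative. The number of circRNAs called over the whole table was 0 in the main test and 1 with at least 10 reads in 3 libraries and 1 with limma-voom, and 0 to 1 with 1 library left out; the number of host genes called was 0, and 1 with limma-voom. None of these calls was a gene of the cascade. With the share taken over circRNAs with at least 2 reads, the difference of A53T minus WT was 0.0431 percentage points for the MAP kinases (0.00875 over reads) and -0.0814 for the MAP3K genes (-0.0268 over reads). The MAP kinase difference turned to -0.0138 without A53T replicate 2 and to -0.0036 with exonic circRNAs only. The cause was not tested.

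Fitted log2 values near 0 changed sign. With totals only they were -0.0032 for Map2k4, -0.0051 for Map3k2 and -0.017 for the Map3k2 ring. With at least 10 reads in 3 libraries Map2k4 was at -0.0055, and with a mean of at least 5 reads Map2k4 was at -0.0039 and Map3k2 at -0.00064. With limma-voom Map3k2 was at -0.25 and its ring at -0.16. With 1 library left out the ranges were -0.21 to 0.53 for Map2k4, -0.065 to 0.80 for its ring of exons 5 to 7, -0.94 to 0.38 for Map3k2, -0.63 to 0.38 for its ring, -0.013 to 0.58 for Map2k1 and -0.15 to 0.21 for Map4k2. The cause was not tested.

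With replicate number as a block 0 circRNAs and 0 hosts were called (47 and 63 at an unadjusted p under 0.05), and the signs of Map3k2 (-0.19) and its ring (-0.12) changed. Same-numbered libraries correlated at -0.03, 0.01 and 0.02 in their deviations. Reads per circRNA were few, so these values cannot show whether same-numbered samples were handled together, and the labels do not say.

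The median host had 12 reads over 6 libraries, and 9 of the 31 hosts passed the filter on low reads; the others were too shallow for the test across the table.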
